A study of Mus musculus with 97 samples.

Results

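The genes described here are 29 of the 51368 genes in a table of estimated counts from 97 mouse RNA libraries. They are the enzymes of cholesterol synthesis, the proteins that sense sterols and control those enzymes, and genes of sterol transport, and they were taken by gene symbol from a given list. All 29 symbols were found in the table, and all 29 have the same name in the GENCODE annotation of the GRCm38 build. By role, 8 members belong to the mevalonate segment of the pathway, 3 lead from farnesyl diphosphate to lanosterol, 9 lead from lanosterol to cholesterol, 4 are regulators and 5 act in transport and uptake.

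The study treated C57BL/6 mice, 11 weeks old at the end, with chow containing a non-steroidal anti-inflammatory drug, with injected tryptophan, or with both. Naproxen inhibits both cyclooxygenases, celecoxib mainly the inducible form, and tryptophan is the amino acid precursor of serotonin and kynurenines. Whole hearts came from 3 experiments and flushed jejunum, the middle part of the small intestine, from another one. In experiment 1, 5 females and 5 males ate plain chow, while 5 females ate 1323 ppm naproxen and 5 males 1610 ppm, and no animal was injected. All other animals were females that received daily intraperitoneal injections in the last of the 3 weeks of diet, either of PBS or of 50 mg/kg tryptophan in PBS. Experiment 2 held 8 controls, 7 mice on 1323 ppm naproxen and 8 on naproxen plus tryptophan. Experiment 3 held 8 controls and 8 mice given tryptophan. Experiment 4, the jejuna, held 8 controls, 8 mice on 550 ppm celecoxib, 7 on 1323 ppm naproxen, 8 given tryptophan and 7 given naproxen plus tryptophan. Each library is from a separate animal per the labels.

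Cells make cholesterol from acetyl-CoA by way of mevalonate, farnesyl diphosphate, squalene and lanosterol. When membrane sterol is low, Scap carries the transcription factor precursor encoded by Srebf2 (SREBP2) from the endoplasmic reticulum to the Golgi, where it is cleaved and released to the nucleus. When sterol is high, Insig1 and Insig2 hold Scap back, so the enzymes of the pathway are known to rise and fall together. In the jejunum, Npc1l1 takes dietary and biliary cholesterol into the enterocyte, and the half-transporters Abcg5 and Abcg8 send sterols back to the lumen. Abcg5, Abcg8 and Mylip, a ubiquitin ligase that degrades lipoprotein receptors, are known mainly as targets of the sterol-activated LXR receptors, so the list joins genes with opposite textbook responses to sterol.

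The promoters of 4 members that moved together across jejuna are printed to show where short elements known from this pathway do and do not occur. Each sequence is the 250 bases before the RefSeq transcription start in the GRCm38.p6 assembly, 5′ to 3′ on the gene's own strand. For Idi1, Cyp51 and Insig1 the gene as annotated by GENCODE begins inside this stretch, and for Hmgcs1 it does not. Capitals mark matches, on either strand, to the sterol regulatory element letters TCACNCCAC, to the CCAAT box bound by NF-Y, and to the GC box GGGCGG bound by Sp1. Hmgcs1, which makes HMG-CoA, lies at chr13:119690101-119690350 (plus strand). Idi1, which isomerizes isopentenyl diphosphate, lies at chr13:8885356-8885605 (plus strand). Cyp51, the lanosterol demethylase, lies at chr5:4104698-4104947 (minus strand). Insig1 lies at chr5:28071162-28071411 (plus strand).
Hmgcs1: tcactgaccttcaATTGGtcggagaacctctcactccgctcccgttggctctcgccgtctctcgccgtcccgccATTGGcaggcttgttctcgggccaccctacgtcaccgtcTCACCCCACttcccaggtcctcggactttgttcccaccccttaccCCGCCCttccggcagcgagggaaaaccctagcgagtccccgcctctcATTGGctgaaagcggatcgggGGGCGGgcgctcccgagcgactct
Idi1: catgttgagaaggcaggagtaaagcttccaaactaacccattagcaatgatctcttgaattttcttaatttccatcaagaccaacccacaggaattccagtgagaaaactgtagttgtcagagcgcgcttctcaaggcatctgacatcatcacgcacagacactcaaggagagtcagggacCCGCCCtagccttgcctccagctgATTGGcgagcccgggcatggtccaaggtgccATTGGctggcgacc
Cyp51: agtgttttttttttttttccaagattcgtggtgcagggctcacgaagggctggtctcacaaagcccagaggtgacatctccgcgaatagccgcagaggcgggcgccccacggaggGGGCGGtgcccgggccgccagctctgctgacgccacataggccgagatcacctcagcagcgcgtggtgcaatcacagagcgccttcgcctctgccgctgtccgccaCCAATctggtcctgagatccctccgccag
Insig1: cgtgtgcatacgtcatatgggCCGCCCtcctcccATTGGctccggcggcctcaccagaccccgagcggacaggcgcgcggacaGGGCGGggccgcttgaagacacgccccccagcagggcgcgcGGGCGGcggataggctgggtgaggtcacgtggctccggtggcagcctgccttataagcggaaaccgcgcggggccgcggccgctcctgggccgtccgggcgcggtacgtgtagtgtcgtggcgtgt

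Only the Hmgcs1 window among these holds the sterol element letters, and it also has 3 CCAAT and 2 GC boxes. Idi1 has 2 CCAAT boxes and 1 GC box, Cyp51 has 1 of each, and Insig1 has 1 CCAAT box and 3 GC boxes. RefSeq windows reaching from 250 bases before to 50 bases after the start were matched for 25 of the 29 members; Sqle, Stard4, Fdft1 and Fdps were not matched. In these windows a CCAAT box was present in 23 of 25 members (92%), against 41.1% of all 27025 genes with a window. Of the windows themselves, 71.9% of the members' 32 and 37.4% of all 32851 held one. A GC box was present in 20 of 25 members (80%) against 38.2% of genes, and both boxes in 17 of 25 (68%) against 14.5%. The sterol element letters were found in 1 of 25 members (4%) and in 1.44% of genes. The 27025 genes were not limited to genes tested here. A match is a description of the letters, and no binding was measured in these samples.

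In control jejuna the transporters stood highest per length. Npc1l1 had a level of 131 ± 43.0 CPM (counts per 1000000 counts of the scaled library) per kilobase of exon (SD, n = 8), Abcg5 67.0 ± 16.7, Stard4, a carrier of sterol between membranes, 44.5 ± 7.83, and Abcg8 37.1 ± 7.57. Hmgcs1 followed with 28.7 ± 4.43 CPM per kilobase and Sc5d, a sterol desaturase, with 23.4 ± 4.52. Of the neighbours in this order, only Npc1l1 and Abcg5 differed by more than the sum of their SDs. Lss, the enzyme that closes the sterol rings, had the lowest level per kilobase in the jejunum at 2.42 ± 0.295 CPM per kilobase. That place depends on its exon length, 10787 bases, the longest of the members. Without the length, its median over all 38 jejuna was 28.2 CPM, above Mvd with 11.4 and Nsdhl with 12.1 CPM.

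Control hearts had another order. In experiment 2, Insig2 led with 13.3 ± 1.44 CPM per kilobase (SD, n = 8), ahead of Fdft1, the squalene synthase, with 8.13 ± 0.695. Mylip with 6.31 ± 0.569 and Hmgcs1 with 6.17 ± 0.345 lay within their SDs of each other. Sqle, squalene epoxidase, was the lowest of the enzymes at 0.146 ± 0.0419 CPM per kilobase, or 0.808 CPM. Npc1l1 had 0.0603 CPM per kilobase, and the median of Abcg5 and of Abcg8 over all 59 hearts was 0 CPM. Control hearts of the experiments differed in both directions: of 29 members, the mean in the females of experiment 1 was below that of both other experiments for 13 and above both for 15. Mean Mvd was 0.868 CPM in its female controls, 3.42 CPM in the controls of experiment 2 and 3.70 CPM in those of experiment 3. Srebf2 likewise had 13.9, 25.7 and 30.4 CPM. Hmgcs1 went the other way with 39.9, 28.4 and 30.1 CPM, and so did Stard4 with 10.3, 7.02 and 7.17 CPM. Hearts were made with a poly-A kit and jejuna with ribosomal RNA depletion, and each experiment was scaled separately, so these levels were not tested across tissues or experiments.

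**Figure D1:**
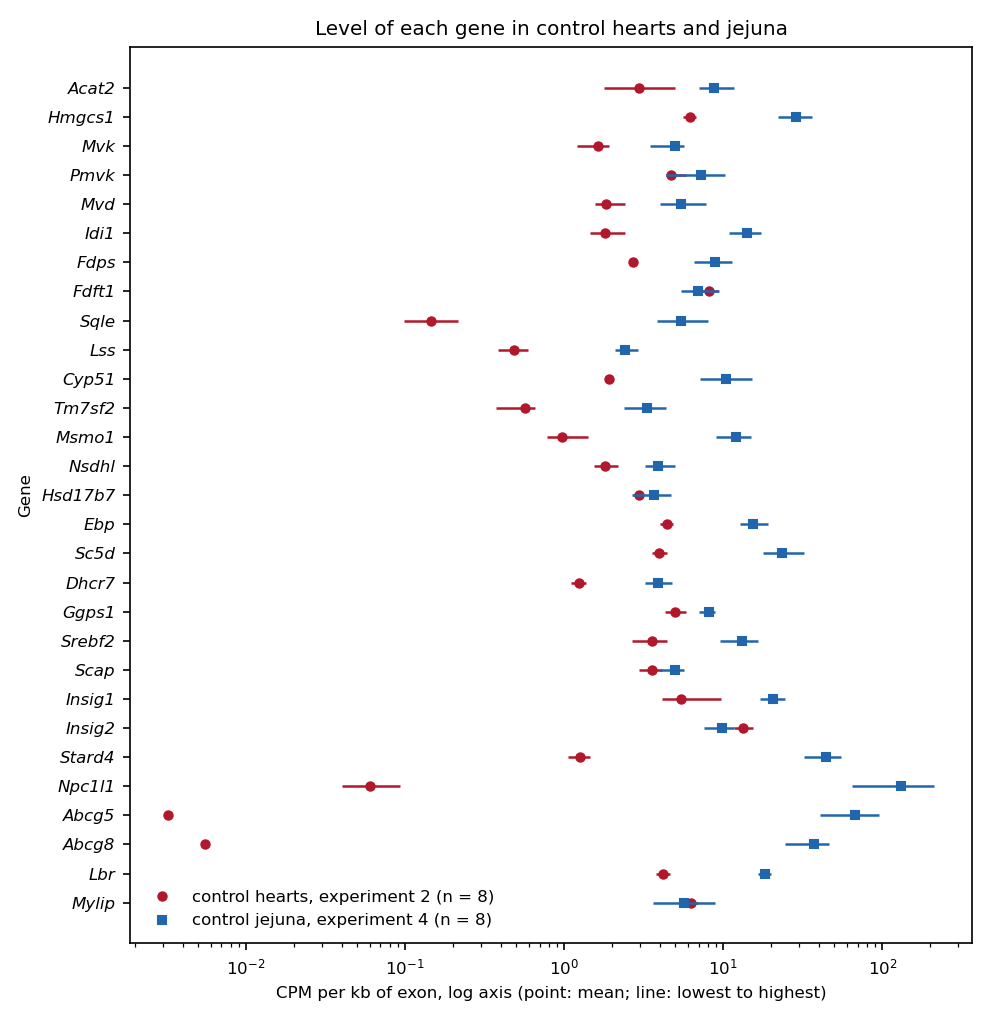
Mean level of each member in CPM per kilobase of exon (x axis, log scale) in 8 control hearts of experiment 2 (circles) and 8 control jejuna (squares), with lines from the lowest to the highest animal where the lowest was above 0. Npc1l1, at 131 CPM per kilobase, is the highest member in jejunum and among the lowest in heart, while Insig2 leads in heart at 13.3.

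Depth, in units of 1000000 estimated counts, ran from 10.11 to 28.54 in the jejuna and from 26.3 to 76.36 in the hearts. The markers of each labelled tissue were present: cardiomyocyte genes summed to 22394 to 53484 CPM in hearts and to at most 79.5 CPM in jejuna, enterocyte genes to 13083 to 58213 CPM in jejuna and to at most 16.9 CPM in hearts. The tests covered 26 members in experiment 1, 27 in the other heart fits and all 29 in the jejunum. Npc1l1 in experiment 1, and Abcg5 and Abcg8 in every heart fit, were below the count filter.

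No member passed the test for any treatment. Called here means a Benjamini-Hochberg adjusted p under 0.05 over all tested genes in the quasi-likelihood test of edgeR, and 0 members were called in each of the 15 treatment comparisons. The plot of treatment differences shows the pattern below that threshold. What follows gives the measured values, the counts at an unadjusted p under 0.05 with the same share over all tested genes, and the calls of DESeq2, a second count test. Members can vary together between animals, in hearts as in jejuna, so a count of members is not a count of independent results. Differences are on the log2 scale, where 1 is 2-fold, and intervals are approximate 95% intervals of the difference.

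**Figure D2:**
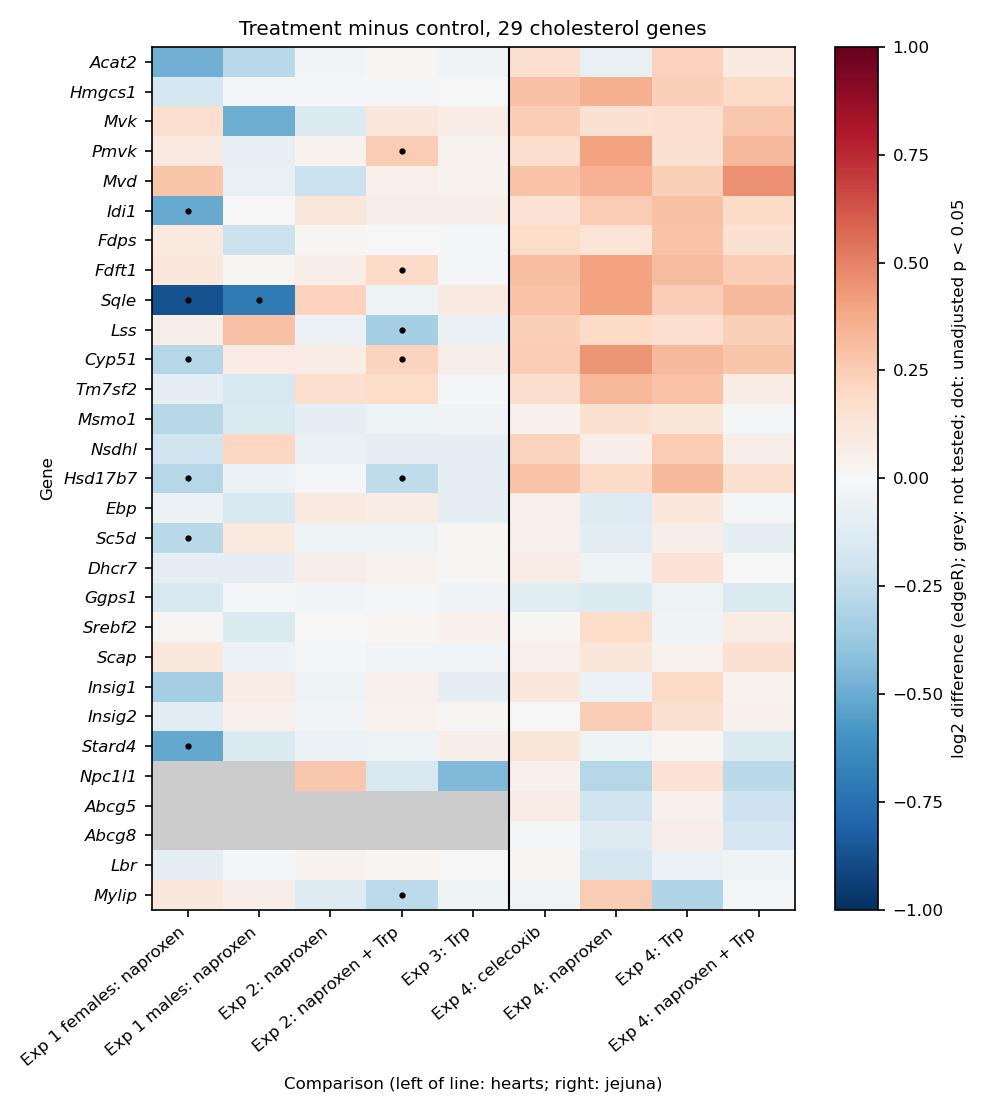
Fitted log2 difference between treatment and control (colour) for each of the 29 members (rows) in 9 comparisons (columns), hearts left of the line and jejuna right of it; dots mark an unadjusted p under 0.05 and grey marks members not tested. None of these differences passed at an adjusted p of 0.05, and the dots lie in 3 of the 5 heart columns and in no jejunum column.

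Naproxen in female hearts of experiment 1 came with lower values of several enzymes and of Stard4, none of them called. Stard4 was at 9.21, 9.32, 10.2, 11.3 and 11.7 CPM in the controls and at 6.07, 6.13, 7.85, 7.91 and 8.27 CPM in the naproxen females. The groups did not overlap, and the log2 difference was -0.51 (95% interval -0.79 to -0.22, unadjusted p 0.0013, edgeR adjusted p 0.386). Idi1 differed by -0.51 (-0.87 to -0.15) and Sqle by -0.87 (-1.54 to -0.21). Sqle, which makes the epoxide that is closed to lanosterol, was at 0.921, 0.982, 1.14, 1.15 and 1.34 CPM in controls and at 0.371, 0.610, 0.654, 0.667 and 0.723 CPM under naproxen, again without overlap. At an unadjusted p under 0.05, 6 of 26 members differed (23.1%), all of them lower, against 4.03% of all tested genes lower and 7.14% in either direction; 0 members were called by edgeR, which called 0.0132% of all genes, and 0 by DESeq2 (0.343%). The others of these 6 were Hsd17b7, Cyp51 and Sc5d, which act after lanosterol, with differences from -0.29 to -0.27. Cyp51, Idi1, Sc5d and Stard4 also varied together between animals of the same group, so the 6 are not independent results. Control replicate 4 was the highest of all 59 hearts for Stard4, Idi1, Hsd17b7 and Sc5d. Without it Idi1 differed by -0.36. Whichever library was left out, the difference of Stard4 was at least as low as -0.43 and that of Sqle as -0.72. The DESeq2 adjusted p of Stard4 was 0.0963. The median over the 26 was -0.10, and -0.02 over all tested genes.

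Markers of blood moved in the same comparison. The 7 erythroid genes summed to 846 to 1815 CPM in the control females and to 1053 to 14252 CPM in the naproxen females, with 7 of 7 higher at an unadjusted p under 0.05. Of 7 neutrophil genes 3 were tested, and all 3 were higher at that level, but 1 library stood apart: the summed level was 281 CPM in naproxen replicate 3 and 2.13, 2.23, 5.02 and 7.64 CPM in the other 4, against 1.85 to 14.8 CPM in controls. The ranges overlapped, and no erythroid gene had a median of 0 in either group. Adipocyte markers went the other way. Their sum had a median of 71.522 CPM (10.737 to 171.84) in control females. With naproxen it was 22.003 CPM (17.937 to 158.02). In males of experiment 1 the medians were 81.528 CPM without and 19.797 CPM with naproxen. The adipocyte ranges overlapped in both sexes. The part of the blood and adipocyte markers in the result was not tested. In bulk tissue, fewer cells of a type and less RNA per cell cannot be told apart.

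In males of experiment 1, Sqle had the smallest p again. It was at 0.498, 0.862, 0.951, 1.13 and 1.54 CPM in control males and at 0.241, 0.472, 0.507, 0.725 and 1.10 CPM in naproxen males, so the groups overlapped. The difference was -0.71 (-1.38 to -0.03, unadjusted p 0.0410, edgeR adjusted p 0.629). Lss differed by 0.29 (-0.01 to 0.59) and Fdps, farnesyl diphosphate synthase, by -0.21 (-0.47 to 0.04). Sqle was the 1 member of 26 at an unadjusted p under 0.05, against 7.68% of all genes; 0 members were called by edgeR (0% of all genes) or by DESeq2 (0.112%). For 24 of 26 members in each sex the whole interval lay within a 2-fold change.

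An interaction term compared the response to naproxen in males with that in females, and edgeR called 0 of 26 members (0% of all genes) and DESeq2 0 (0.0066%). The smallest p was that of Cyp51, whose effect was 0.37 greater in males (0.03 to 0.70, unadjusted p 0.0326, edgeR adjusted p 0.759). Cyp51 was at 9.73, 11.3, 12.8, 13.3 and 14.2 CPM in control females, and at 9.46, 9.53, 10.0, 10.7 and 10.7 CPM in naproxen females. In males it was at 10.8, 11.3, 11.3, 12.2 and 12.8 CPM without and at 10.2, 11.0, 11.6, 14.2 and 14.8 CPM with naproxen. Both pairs of groups overlapped, and the males' dose in the chow was also higher than the females'. Nsdhl, Sc5d and Idi1 also had an unadjusted p under 0.05, making 4 of 26 against 5.05% of all genes.

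**Figure D3:**
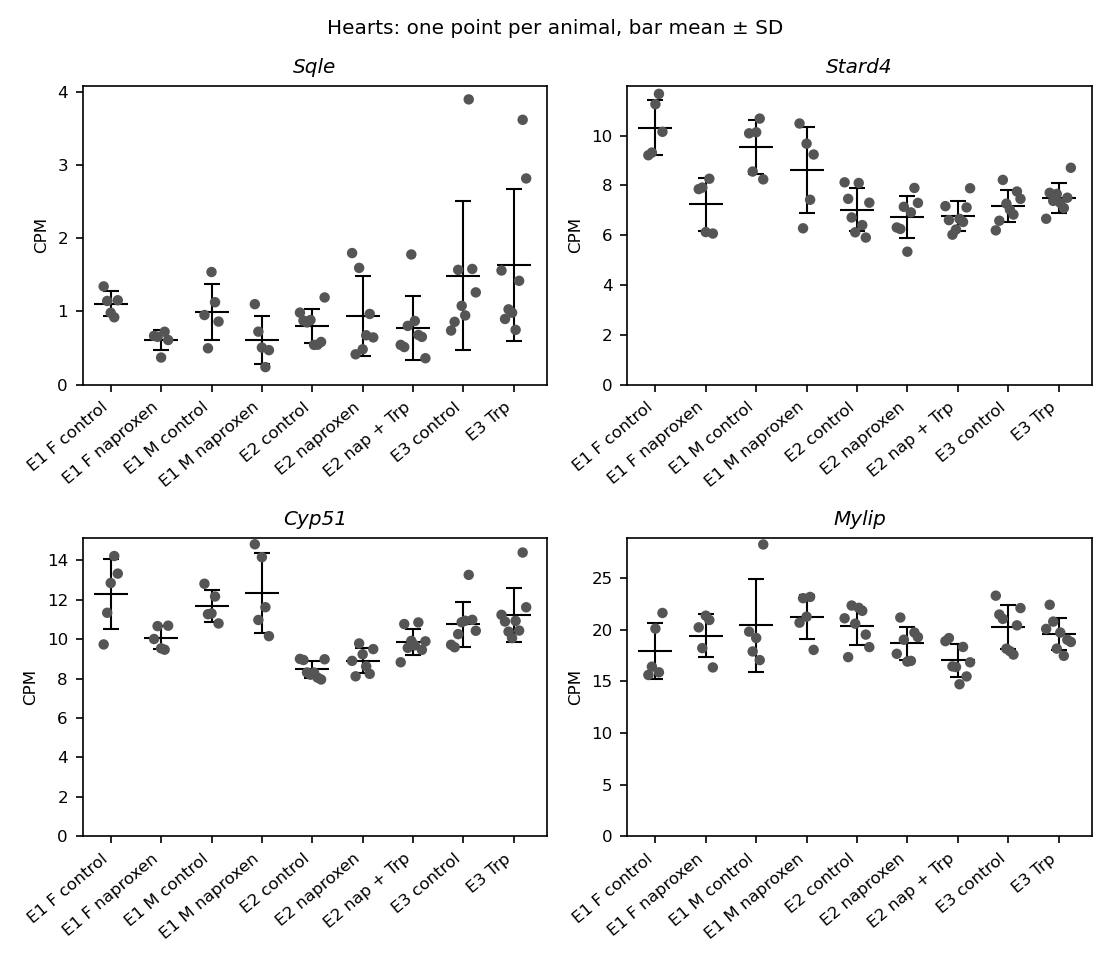
CPM (y axis, from 0) of Sqle, Stard4, Cyp51 and Mylip in every heart, by group (E1 to E3 are the experiments, F and M the sexes, nap naproxen, Trp tryptophan); points are animals and bars are mean ± SD. Stard4 in naproxen females of experiment 1 (6.07 to 8.27 CPM) lies below their controls (9.21 to 11.7 CPM), and in experiment 3 the 2 highest Sqle values are 3.89 CPM in a control and 3.62 CPM in a tryptophan heart.

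In experiment 2, where females on the same naproxen dose were also injected with PBS, 0 of 27 members were called by edgeR (0% of all genes) and by DESeq2 (0.0373%), and 0 of 27 had an unadjusted p under 0.05 (3.63% of all genes did). Mvd, mevalonate diphosphate decarboxylase, had the smallest p. Its lowest, median and highest values were 2.89, 3.19 and 4.48 CPM in 8 controls and 2.51, 2.96 and 3.24 CPM in 7 naproxen hearts. The groups overlapped, and the difference was -0.22 (-0.44 to 0.01). Mylip differed by -0.13 (-0.27 to 0.02) and Tm7sf2, a sterol reductase, by 0.17 (-0.06 to 0.40). For all 27 tested members the interval lay within a 2-fold change, and for 25 within a 1.5-fold change.

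The naproxen effects in the females of the 2 experiments were set against each other in a joint fit, which removes only each experiment's overall level. Of 27 members 0 were called by edgeR (0.00618% of all genes) and 0 by DESeq2 (0.0556%). For Cyp51, which has the smallest p, the effect in experiment 2 exceeded that in experiment 1 by 0.34 (0.12 to 0.56, unadjusted p 0.00420, edgeR adjusted p 0.9999). Beside the Cyp51 values above, its lowest, median and highest were 7.95, 8.30 and 9.00 CPM in controls and 8.11, 8.90 and 9.78 CPM in naproxen hearts of experiment 2. Idi1 (0.60, 0.17 to 1.03) and Stard4 (0.43, 0.12 to 0.74) were next. The difference between experiments had an unadjusted p under 0.05 for 6 of 27 members, 5 of them positive, against 1.56% of all genes positive and 3.49% of either sign. The females of experiment 1 are the same animals as in the naproxen comparison and the comparison of sexes above. These sets of values are therefore not independent. Erythroid genes had the opposite sign in this comparison: 7 of 7 were negative at an unadjusted p under 0.05, and their part in the members' values was not tested.

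Naproxen plus tryptophan in experiment 2 gave the smallest adjusted p-values of the heart treatments. Cyp51 had a lowest, median and highest of 7.95, 8.30 and 9.00 CPM in controls and of 8.83, 9.78 and 10.8 CPM in 8 treated hearts, so the groups overlapped only at their edges. Its difference was 0.22 (0.11 to 0.33), with an adjusted p of 0.0753 in edgeR and 0.0106 in DESeq2. Mylip was at 17.3, 20.8 and 22.3 CPM in controls and at 14.7, 16.6 and 19.2 CPM in treated hearts, with overlap. Its difference was -0.26 (-0.40 to -0.12), with an adjusted p of 0.0824 in edgeR and 0.0229 in DESeq2. Thus edgeR called 0 of 27 members (0.255% of all genes) and DESeq2 2 of 27 (2.47% of all genes). Lss had the third smallest p, with a difference of -0.33 (-0.55 to -0.12). Counting the unadjusted p under 0.05, 6 of 27 members differed: Cyp51, Pmvk and Fdft1 were higher, and Mylip, Lss and Hsd17b7 lower. Over all genes that share was 17.2%, with 10.4% higher and 6.81% lower, so the members' 22.2% is near the background.

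Added to naproxen, tryptophan in experiment 2 gave 0 of 27 members called by edgeR (0.0933% of all genes) and 0 by DESeq2 (0.497%). Hsd17b7, a ketoreductase of the sterol steps, had 13.4, 14.1 and 17.0 CPM as lowest, median and highest with naproxen alone and 9.93, 12.7 and 15.9 CPM with both. The groups overlapped, and the difference was -0.24 (-0.41 to -0.06, unadjusted p 0.00990, edgeR adjusted p 0.385). Cyp51 differed by 0.15 (0.03 to 0.26) and Lss by -0.28 (-0.50 to -0.06). An unadjusted p under 0.05 was found for 6 of 27 members, 4 higher and 2 lower, against 9.8% of all genes, 5% higher and 4.79% lower. This comparison shares its animals with the other 2 of experiment 2, so the 3 sets of values are not independent.

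Tryptophan alone in experiment 3 gave 0 of 27 members called by edgeR (0% of all genes), 0 by DESeq2 (0.0127%) and 0 at an unadjusted p under 0.05 (2.9% of all genes). Npc1l1, close to the detection limit in heart, had the smallest p, with 0.146, 0.276 and 0.422 CPM as lowest, median and highest in controls and 0.0483, 0.243 and 0.369 CPM with tryptophan. The groups overlapped, and the difference was -0.44 (-1.07 to 0.19). Ebp differed by -0.10 (-0.27 to 0.08) and Hsd17b7 by -0.09 (-0.25 to 0.07). For 26 of 27 members the interval lay within a 1.5-fold change, the largest such share of the 15 comparisons.

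The labels of experiments 3 and 4 give a dissection batch, and each of the 4 batches held 2 animals of every treatment, except batch 4 with 1 each of naproxen and of naproxen plus tryptophan. A test of differences among batches, added after seeing the data, called Sqle in the hearts of experiment 3. In batch 2 Sqle was at 1.58, 2.82, 3.62 and 3.89 CPM, 2 control and 2 tryptophan hearts, while the other 3 batches ranged from 0.740 to 1.57 CPM, so the ranges did not overlap. The fitted levels of the highest and lowest batch were 1.5 apart on the log2 scale (edgeR adjusted p 0.0345). Sqle was the 1 member of 27 called, where 0.702% of all genes were called. Insig1 and Acat2, an acetyl-CoA acetyltransferase, had adjusted p-values of 0.0527 and 0.0701 in edgeR. Insig1 averaged 26.8 ± 8.22 CPM in batch 2 (SD, n = 4) and 14.1 to 16.5 CPM in the other batches, and Acat2 12.5 ± 4.66 against 5.55 to 5.76 CPM. At an unadjusted p under 0.05, 14 of 27 members differed among batches, against 16.2% of all genes, and DESeq2 called 9 members and 6.62% of all genes. Leaving out any 1 of 8 of the 16 hearts ended the call of Sqle: control replicates 4, 5, 6 and 8 and tryptophan replicates 3, 4, 5 and 7, with an adjusted p of at most 0.111. Acat2 has a near-identical neighbouring copy in the mouse, so its counts depend on how reads were shared.

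Other lists moved with batch 2 of experiment 3. The 17 fatty acid synthesis genes, known mainly as SREBP1 targets, summed to 2689 to 5569 CPM in batch 2 and to 1186 to 1951 CPM elsewhere, and Me1, Acss2, Acly and Acaca of that list were called. Adipocyte markers summed to 85.0 to 392 CPM in batch 2 and to 8.85 to 96.1 CPM elsewhere, with 6 of 6 at an unadjusted p under 0.05 and 0 called. Erythroid markers summed to 4092 to 6892 CPM against 1823 to 3562 CPM, with 4 called, where 0.702% of all genes were called. Control replicate 6 of batch 2 was the highest of all 59 hearts for 8 members (Acat2, Pmvk, Mvd, Fdps, Sqle, Lss, Nsdhl and Insig1), and it had the highest adipocyte sum, 392 CPM. The part of these cell markers in the batch difference was not tested.

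In the jejunum no treatment moved a member past the test either, and 0 of 29 members had even an unadjusted p under 0.05 in any of the 7 comparisons, by edgeR. DESeq2 called 0 members in each as well. Most fitted differences lay above 0, but the intervals all included 0. Under celecoxib 26 of 29 differences were above 0 (49.1% of all genes were) with a median of 0.12, and under tryptophan 25 of 29 (49.3% of all genes) with a median of 0.16. Under naproxen it was 18 of 29 (53.3%) with a median of 0.15, and under naproxen plus tryptophan 19 of 29 (53.5%) with a median of 0.07. The medians over all genes lay between -0.0034 and 0.022. Another measure is the mean over the 20 enzymes in each animal, as log2 over the control mean and without a batch term. Over animals its median was -0.0017 under naproxen and 0.05 in the controls themselves. It was 0.09 under naproxen plus tryptophan, 0.14 under celecoxib and 0.16 under tryptophan, so only naproxen lay below the controls. These 4 comparisons share the same 8 control jejuna, and the members move together between animals, so the counts of signs are not independent.

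For celecoxib edgeR called 0 of 29 members (0% of all genes, as in DESeq2; 4.37% had an unadjusted p under 0.05). Mvk, mevalonate kinase, had the smallest p. It was at 9.32, 14.0 and 15.1 CPM as lowest, median and highest in 8 controls and at 13.8, 15.3 and 18.8 CPM in 8 celecoxib jejuna, with overlap. The difference was 0.24 (-0.02 to 0.51). Hsd17b7 differed by 0.28 (-0.11 to 0.67) and Ggps1, geranylgeranyl diphosphate synthase, by -0.12 (-0.30 to 0.05). For all 29 members the interval lay within a 2-fold change.

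For naproxen edgeR called 0 of 29 members (0.0116% of all genes, 0.547% in DESeq2), although 16% of all genes had an unadjusted p under 0.05. Pmvk, phosphomevalonate kinase, had the smallest p, with 7.43, 11.9 and 17.6 CPM in controls and 9.56, 14.5 and 28.0 CPM in 7 naproxen jejuna as lowest, median and highest. The groups overlapped, and the difference was 0.40 (-0.01 to 0.81, edgeR adjusted p 0.321). Insig2 differed by 0.25 (-0.06 to 0.55) and Tm7sf2 by 0.33 (-0.08 to 0.75). Without naproxen replicate 6 the differences of Pmvk, Insig2 and Tm7sf2 were 0.21, 0.14 and 0.17, and with the replicate number as a block they were 0.11, 0.14 and 0.18. With no filter on low counts, edgeR called 3 members here, Cyp51, Fdft1 and Sqle, and 1182 genes in all. Their log2 differences in the filtered fit were 0.44 (-0.18 to 1.06), 0.40 (-0.15 to 0.95) and 0.41 (-0.21 to 1.02).

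For tryptophan edgeR called 0 of 29 members (0% of all genes, as in DESeq2; 2.65% at an unadjusted p under 0.05). Hsd17b7 had the smallest p, with 13.7, 19.2 and 24.1 CPM in controls and 17.9, 23.8 and 32.6 CPM with tryptophan, overlapping, and a difference of 0.32 (-0.07 to 0.71). Dhcr7, which makes cholesterol from its last precursor, differed by 0.15 (-0.04 to 0.33) and Tm7sf2 by 0.29 (-0.11 to 0.68).

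For naproxen plus tryptophan edgeR called 0 of 29 members (0% of all genes, 0.0582% in DESeq2; 5.98% at an unadjusted p under 0.05). Mvk again had the smallest p, with the controls above and 11.2, 14.6 and 26.0 CPM in 7 treated jejuna, overlapping, and a difference of 0.27 (-0.01 to 0.55). Scap differed by 0.16 (-0.04 to 0.35) and Ggps1 by -0.15 (-0.33 to 0.04).

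Between the 2 drugs, edgeR called 0 of 29 members for naproxen against celecoxib (0% of all genes, 1.51% in DESeq2), while 18.7% of all genes had an unadjusted p under 0.05. Ebp, a sterol isomerase, was at 29.6, 37.1 and 43.4 CPM under celecoxib and at 27.1, 31.5 and 38.4 CPM under naproxen, overlapping, with a difference of -0.18 (-0.37 to 0.01). Insig2 differed by 0.24 (-0.06 to 0.54) and Lbr by -0.18 (-0.41 to 0.06). For naproxen plus tryptophan against naproxen edgeR called 0 of 29 members (0% of all genes, 0.0582% in DESeq2; 3.66% at an unadjusted p under 0.05). Insig2 was at 26.2, 39.8 and 61.0 CPM under naproxen and at 29.5, 33.8 and 49.4 CPM under both, overlapping, with a difference of -0.21 (-0.52 to 0.11). Tm7sf2 differed by -0.26 (-0.68 to 0.17) and Ebp by 0.11 (-0.09 to 0.31).

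The interaction of naproxen and tryptophan asks whether both together differ from the sum of each, and edgeR called 0 of 29 members for it (0% of all genes, 0.0116% in DESeq2; 3.4% at an unadjusted p under 0.05). Tm7sf2 was at 10.5, 14.4 and 19.3 CPM in controls, at 12.2, 14.5 and 34.7 CPM with naproxen, at 13.1, 15.2 and 31.6 CPM with tryptophan and at 9.68, 13.8 and 33.7 CPM with both. All 4 groups overlapped, and the interaction was -0.54 (-1.13 to 0.04). Insig2 gave -0.36 (-0.79 to 0.07) and Fdft1 -0.47 (-1.25 to 0.30). Of 29 members, 4 had an interaction above 0 (51.4% of all genes did), with intervals within a 2-fold change for 22.

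**Figure D4:**
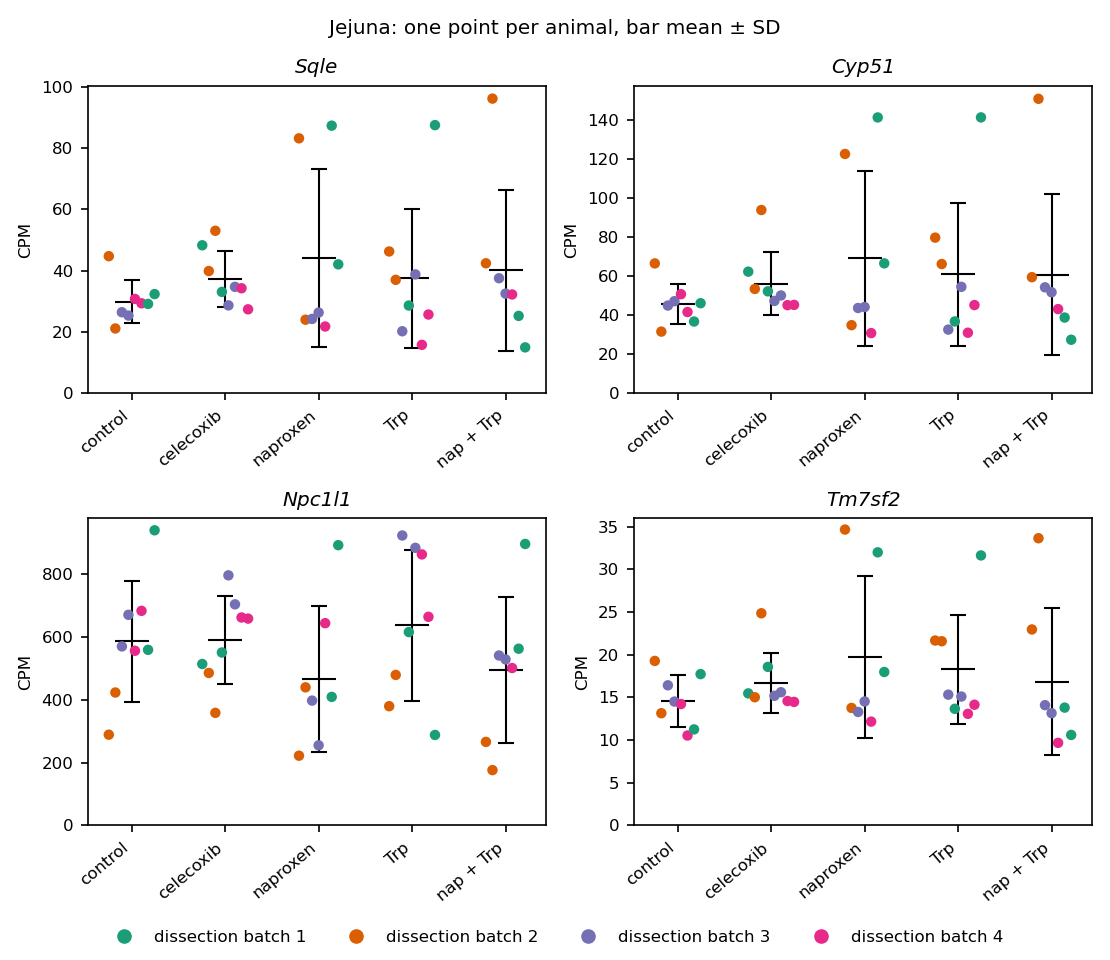
CPM (y axis, from 0) of Sqle, Cyp51, Npc1l1 and Tm7sf2 in each of 38 jejuna by treatment (nap naproxen, Trp tryptophan), coloured by dissection batch; bars are mean ± SD. For Sqle 4 treated animals, between 83.1 and 96.1 CPM, stand apart from the other 34, which reach at most 53.0 CPM, and all 4 belong to batches 1 and 2.

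The members varied widely between single jejuna, and most of them together. With group and batch means removed, the median SD on the log2 scale was 0.40 for the members and 0.34 for all tested genes. Sqle, named here after its values were seen, had a mean of 29.9 ± 6.94 CPM in controls (SD, n = 8) and ran from 14.9 to 96.1 CPM over all 38 jejuna, a 6.43-fold range. Mvd spanned 7.92-fold, Fdps 6.47-fold and Cyp51 5.51-fold, while Dhcr7 spanned 1.62-fold and Ebp 1.75-fold. After group and batch means were removed, the first principal component held 52.9% of the members' variance, against 26.1% for all 17185 tested genes. On it 25 of 29 members had the same sign, with Cyp51, Idi1, Fdps, Fdft1, Sqle and Hmgcs1 weighing most. The 4 of opposite sign were Npc1l1, Abcg8, Abcg5 and Scap. The components are a description with no test, and animals of 1 run share depth and tissue make-up. The share of a first component also depends on how many genes enter and how related they are. No other gene sets of the members' size were drawn, here or in the hearts, so the gap to all genes has no background. In the hearts the members' first component held 45.7% in experiment 1 (all genes 39.6%), 32.1% in experiment 2 (26.1%) and 40.3% in experiment 3 (25.9%). The signs were split more evenly there, 15 to 11 in experiment 1 and 18 to 9 in experiment 2, against 22 to 5 in experiment 3. In experiment 1 the enzymes did not vary as one: Mvk, Mvd, Pmvk and Fdps had the opposite sign to Cyp51, Idi1 and Sc5d.

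Single animals carried much of this spread. The mean over the 20 enzymes, as log2 over the control mean, ran from -0.21 to 0.21 in control jejuna and from 0.04 to 0.59 under celecoxib. It ran from -0.35 to 0.83 under naproxen, from -0.28 to 0.90 under tryptophan and from -0.46 to 0.98 under naproxen plus tryptophan. The highest 4 animals were naproxen replicates 1 and 6, tryptophan replicate 8 and naproxen plus tryptophan replicate 2, in which 19, 18, 19 and 18 of 29 members lay above every control. Together these 4 held the highest value of 20 of the 29 members. They were picked by their enzyme means, so high counts of members follow in part from that choice. Other animals of the same groups lay low: naproxen replicates 4 and 5, tryptophan replicate 3 and naproxen plus tryptophan replicate 7 had 13, 12, 10 and 13 members below every control. Thus each of the 3 groups held animals on both sides of the controls, and the difference in spread between groups was not tested. Counts above or below every control were not made over all tested genes, so neither these nor the enzyme counts that follow have a background.

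**Figure D5:**
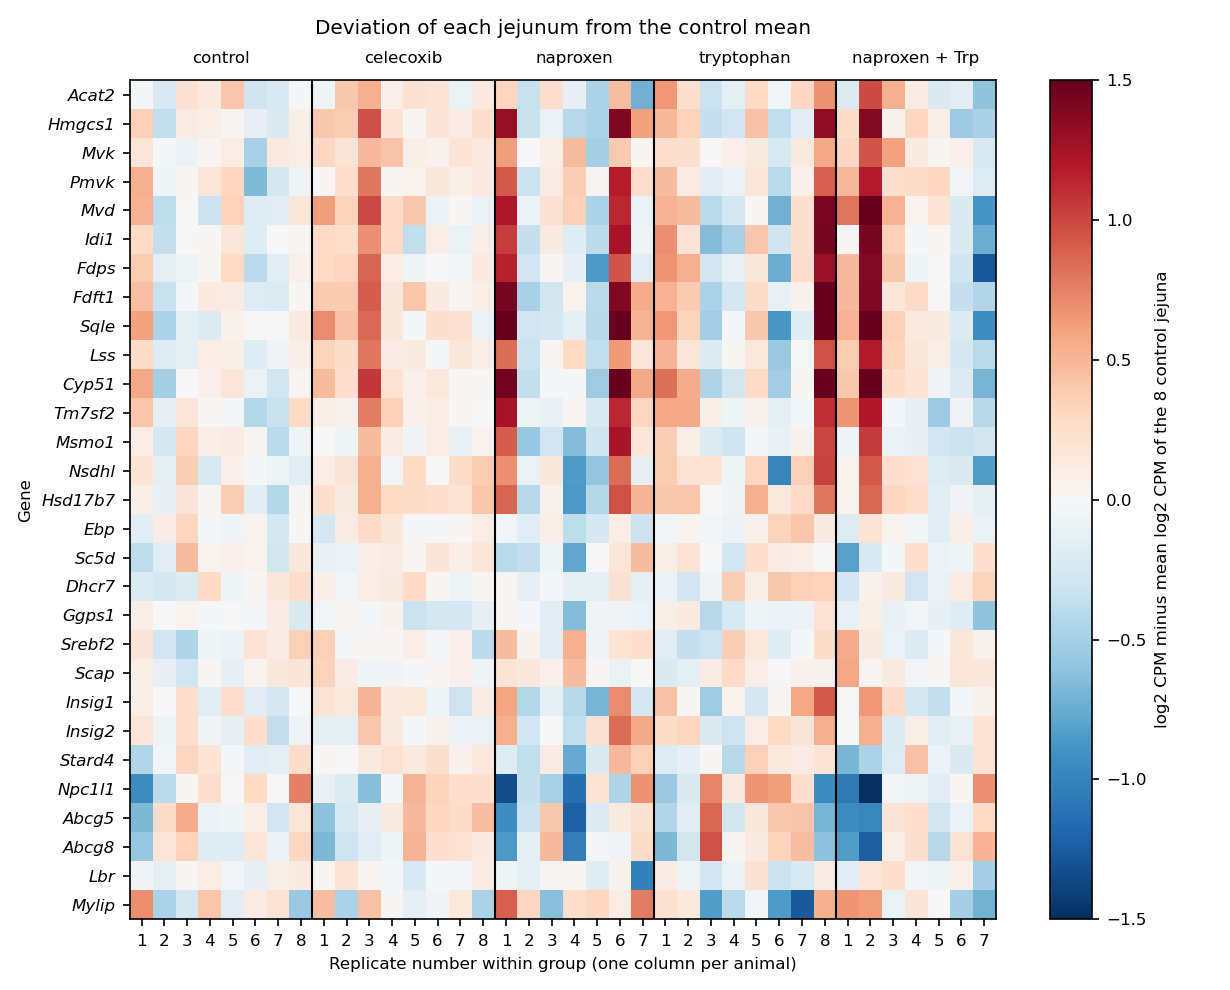
Deviation of each member (rows) in each of 38 jejuna (columns, grouped by treatment and numbered by replicate) from the mean of the 8 controls, in log2 CPM; colours saturate at the ends of the scale. Naproxen replicates 1 and 6, tryptophan replicate 8 and naproxen plus tryptophan replicate 2 are red over most enzymes, and Npc1l1 is blue in the same 4 columns, at 222, 409, 288 and 176 CPM against a control mean of 586 CPM.

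Enterocyte markers lay below their median in the same 4 animals. They summed to 13083, 28015, 19969 and 13490 CPM, against a median of 38892 CPM over all jejuna, and Npc1l1, an enterocyte gene, was at 222, 409, 288 and 176 CPM. Macrophage markers summed to 578, 130, 287 and 505 CPM, against a median of 219.7 CPM. Other animals with low enterocyte sums varied in their enzymes. Naproxen plus tryptophan replicate 1 had 14334 CPM and an enzyme mean of 0.16, with 6 of 20 enzymes above every control. Naproxen replicate 4 had 16881 CPM and a mean of -0.19, with 2 of 20. Control replicate 1 had 18903 CPM and the highest control mean, 0.21, and celecoxib replicate 3 had 25122 CPM and 0.59, with 15 of 20. Tryptophan replicate 1 had 26467 CPM, with 13 of 20 enzymes above every control. Celecoxib replicates 2 and 1 had 27026 and 27779 CPM, with 4 and 6 of 20. The part of tissue make-up in the enzyme levels was not tested.

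Among jejunum dissection batches, a test also added after seeing the data called 5 of 29 members, where 19.8% of all genes were called, so the share is near the background. DESeq2 called 9 members and 27.1% of all genes, and 14 members had an unadjusted p under 0.05 against 36.1% of all genes. The 5 were Npc1l1, Tm7sf2, Abcg5, Abcg8 and Dhcr7. Npc1l1 (chr11:6211013-6230143, minus strand) averaged 352 ± 109 CPM in batch 2 (SD, n = 10) against 623 ± 219, 627 ± 211 and 654 ± 105 CPM in batches 1, 3 and 4 (edgeR adjusted p 0.00957). Batch 2 ranged from 176 to 485 CPM, and the other batches, from 255 to 939 CPM, overlapped with it. Abcg5 averaged 134 ± 39.6 CPM in batch 2 and 169 to 214 CPM elsewhere (edgeR adjusted p 0.0335), and Abcg8 101 ± 29.03 against 139 to 163 CPM (edgeR adjusted p 0.0354). These 2 genes lie head to head on chromosome 17 and overlap in the annotation, so reads in the overlap may be shared. Tm7sf2 moved the other way, with 22.1 ± 7.51 CPM in batch 2 and 12.9 ± 1.89 CPM in batch 4 (edgeR adjusted p 0.0152). Dhcr7 ran from 21.0 ± 2.20 CPM in batch 2 to 26.0 ± 2.68 CPM in batch 1 (edgeR adjusted p 0.0395). Npc1l1 and Tm7sf2 stayed called when any 1 of the 38 jejuna was left out, Abcg5 in 29, Abcg8 in 28 and Dhcr7 in 26 of 38 such fits. With no count filter Dhcr7 lost its call (edgeR adjusted p 0.323).

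Cell markers differed among these batches too. Enterocyte markers summed to a median of 25790 CPM in batch 2 and of 39150 to 41580 CPM in the others. Of these markers 5 of 10 were called, and all 6 macrophage markers were called, against 19.8% of all genes. Genes of other lists were called too. Among them were Acly, Mlxipl, Elovl5 and Pnpla3 of fatty acid synthesis, and Nus1, Sult2b1, Abca1 and Cyp27a1 of the other sterol genes. The part of the cell markers in the batch differences was not tested.

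Among genes next to the pathway no treatment call was made either. Of 35 other sterol and isoprenoid genes, 32 to 35 were tested per comparison, and of 17 fatty acid synthesis genes all were tested. By edgeR and by DESeq2, 0 of either list were called in any of the 15 treatment comparisons. At an unadjusted p under 0.05, naproxen in the jejunum gave 2 higher and 4 lower of 35 sterol genes and 1 higher and 4 lower of 17 fatty acid genes, against 16% of all genes. In female hearts of experiment 1, where 6 members differed at that level, 0 of 32 other sterol genes and 2 of 17 fatty acid genes did.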

How the data were processed

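RNA was sequenced from 59 mouse hearts and 38 jejuna in 14 groups. The authors deposited 1 table of gene-level estimated counts for 51368 genes, and the submitters' processing notes name Salmon 1.9.0, R 4.2.2 and the GRCm38 build. The use of strand in counting is not given in those notes. Of the values, 24.7% were not whole, and all were rounded before testing. No 2 libraries were identical.

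Each experiment was fitted separately over all its groups with edgeR 4.0.16 (R 4.3.3; TMM scaling, minimum count 10, robust quasi-likelihood test, dissection batch as a block in experiments 3 and 4), and a joint fit compared the females of experiments 1 and 2. Benjamini-Hochberg adjustment covered every gene of a fit, with a threshold of 0.05. The scripts were tested on simulated data. CPM uses TMM-scaled library sizes. Lengths are union exon bases. Promoters come from RefSeq.

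The members and the other gene lists were chosen with earlier results of these data known. By rule, values are given for called members and for the tested member with the smallest p of a comparison, and the next 2 members by p are examples. In experiment 1 each animal is listed. Elsewhere the values are mostly lowest, median and highest, or a mean with SD. Alternatives were DESeq2 1.42.0, its size factors, no count filter, a replicate block, no batch term and leaving out each library.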

Additional observations from a re-analysis of the deposited data

Results flagged for a closer look

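Of 56 groups of 4 to 10 animals screened for a single far value, 2 were picked out, and chance alone picks out about 1 in 20. Mvk in control jejunum replicate 6 was at 9.323 CPM, while the other 7 controls lay between 12.44 and 15.14 CPM. Tm7sf2 in tryptophan jejunum replicate 8 was at 31.64 CPM, while the other 7 of its group lay between 13.08 and 21.67 CPM. That animal is also among the 4 with the highest enzyme means. No difference between the naproxen effects of the sexes, or of the females of experiments 1 and 2, was called for a member.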

How the results depend on the processing

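In all 15 treatment comparisons the count of members called stayed at 0 with the size factors of DESeq2 and when any 1 library was left out, and in the 8 with a dissection batch term also without it. With the replicate number as a block, 0 members were called in each of the 15. Same-numbered animals are not the same animal, and their deviations correlated from -0.437 to 0.356, so the numbers do not pair them; the block moved the count of all genes called to between 0 and 62. DESeq2 called 2 members, Cyp51 and Mylip, for naproxen plus tryptophan in hearts, where it called 397 genes against 41 in edgeR. With no count filter 3 members were called for naproxen in jejuna, where the genes called rose from 2 to 1182. The cause was not tested. Over the treatment comparisons the genes called ranged from 0 to 397 with DESeq2 and from 0 to 1784 with no filter, against 0 to 41 as reported. The 45 log2 differences of named members were recomputed under these settings, and 0 of 1512 values changed direction. These differences had been chosen for the smallest p of each comparison, which makes a change of direction less likely. Some of the libraries left out were also outside the groups compared. Their size was less stable: 19 of 45, 13 of them in jejuna, moved by over 1.5 times when some 1 library was left out, and 3 of these also under an alternative, the replicate block. None of the 19 was called. Without the library that mattered most, Lbr for naproxen against celecoxib went from -0.18 to -0.07 (naproxen replicate 7), Scap for naproxen plus tryptophan from 0.16 to 0.06 (its replicate 1), Tm7sf2 for tryptophan from 0.29 to 0.13 (replicate 8), and Npc1l1 for tryptophan in hearts from -0.44 to -0.27 (tryptophan replicate 5).

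Calls among dissection batches moved more. In hearts 1 member became 9 with DESeq2 and 9 with no filter, and 0 to 5 when 1 library was left out: 5 without control replicate 7 or tryptophan replicate 8, and 3 without control replicate 3 or tryptophan replicate 1. In jejuna 5 members became 9 with DESeq2, 16 with no filter, without Dhcr7 of the 5, and 2 to 10 when 1 library was left out. The count was 2 or 3 without control replicate 1, naproxen replicate 1 or 3, tryptophan replicate 1, 2 or 3, or naproxen plus tryptophan replicate 1, 2 or 4. It was 8 without control replicate 2, and 10 without naproxen replicate 2 or tryptophan replicate 8. Precision limits what can be said: for naproxen in jejuna the interval lay within a 1.5-fold change for 15 of 29 members. For the others the interval also held changes beyond 1.5-fold.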
